A study of Mus musculus with 33 samples.

Results

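The G2/M and mitosis genes described here are 50 genes that act as a cell enters and passes through division: mitotic cyclins and their kinase, the Cdc25 phosphatases, Polo and Aurora kinases, the spindle checkpoint, anaphase regulators, mitotic kinesins, kinetochore and cytokinesis proteins, condensin and the transcription factor Foxm1. A gene was taken as measured when at least 1 probe set of the array (a group of short probes for 1 transcript) was annotated with that symbol alone, and its value was the mean of its probe sets. By this rule 49 of the 50 genes were measured, with 121 probe sets, among 18193 genes in all. Ccnb1, which encodes cyclin B1, was not analysed here. Of the 49, 12 rested on 1 probe set and 37 on several, up to 5.

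The expression arrays compared cultured enteric neural crest cells (ENCCs), the progenitors of the gut's own nervous system, with and without the growth factor GDNF, and with whole embryonic gut. ENCCs were sorted by their YFP fluorescence from guts of C57BL/6 mouse embryos at embryonic day 14.5. The embryos carried Wnt1-Cre, which is active in the neural crest lineage, and a LoxP/R26-YFP reporter that Cre switches on, so the sort also takes any other cell in which Cre has acted. The cells of each gut were divided over a pair of fibronectin-coated wells in N2 and B27 medium with FGF and EGF, and 1 well of each pair received GDNF at 50 ng/ml. All ENCC samples, untreated ones included, were therefore grown with both mitogens. Whole gut was wild-type C57BL/6 gut of the same age, taken from duodenum to anus, neither sorted nor cultured, and its own ENCCs were left in it; its cell type label names ENCCs, but its source is gut. The length of the culture, the litters and any pooling of embryos are not stated in the labels.

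Cells commit to mitosis when cyclin-bound Cdk1 is released from inhibitory phosphates by the Cdc25 phosphatases, with Plk1 and the Aurora kinases driving spindle assembly and a checkpoint holding the anaphase-promoting complex until chromosomes are attached. Most of these genes are transcribed periodically: the DREAM complex holds them silent in resting cells, and MuvB with B-Myb and Foxm1 turns them on late in the cycle, through a promoter element called the cell cycle genes homology region (CHR) and through CCAAT boxes bound by NF-Y. GDNF signals through the receptor RET and is known as a mitogen, survival factor and differentiation factor for ENCCs.

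In all, 33 arrays were read: 12 of untreated ENCCs, 13 of GDNF-treated ENCCs and 8 of whole gut, 17 in batch 1 and 16 in batch 2, as the titles call them. They hold 18 ENCC RNAs, both wells of each of 9 guts, and 7 of these RNAs were read in both batches. Whole gut was read in batch 2 alone. The deposited values are normal scores: on every array the same set of values, from -4.0836 to 4.0836 with a median of 0, was assigned by rank, and for nearly every probe set the mean of the 7 repeated RNAs lay near 0 within each batch. A score is thus a gene's standing relative to the other genes and to those ENCC RNAs. A difference between groups can be read for 1 gene, but it is not a fold change, levels of different genes cannot be ranked, and a shift shared by all genes is not kept. In batch 2 the ENCC identity markers were higher in untreated ENCCs than in whole gut for 9 of 9 progenitor genes and 12 of 12 neuronal genes by limma, and 11 of 11 epithelial genes were lower. Of all genes 19.8% were called higher and 22.8% lower there. The RNA pair of gut 1 stood apart from the other guts in the mitosis genes, and the counts and the called genes for GDNF are given with and without it.

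Promoters of many of the genes share the letters of these elements, and 7 are shown. They belong to Cdc25b, the single gene called for GDNF, and to Plk1, Espl1 and Cdk1. Plk1 and Espl1 were among the genes farthest below whole gut in both ENCC groups, and Cdk1 in GDNF-treated ENCCs alone. Cdc20 was chosen for its role and not for its differences. Bub3 and Pttg1 are the pair that did not follow the rest. Other genes with differences as large are not shown. Each line gives the 100 bases before the RefSeq start on the gene's own strand, 5′ to 3′, in build GRCm38.p6. Capitals mark CHR letters (TTTGAA, or TTCAAA on the other strand) and CCAAT boxes (CCAAT, or ATTGG on the other strand).
Cdc25b, chr2:131186848-131186947, plus strand: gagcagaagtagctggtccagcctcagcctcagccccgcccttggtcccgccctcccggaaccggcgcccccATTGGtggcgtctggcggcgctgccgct
Cdk1, chr10:69352913-69353012, minus strand: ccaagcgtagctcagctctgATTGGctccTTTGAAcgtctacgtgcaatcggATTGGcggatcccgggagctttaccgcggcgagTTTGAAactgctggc
Cdc20, chr4:118437344-118437443, minus strand: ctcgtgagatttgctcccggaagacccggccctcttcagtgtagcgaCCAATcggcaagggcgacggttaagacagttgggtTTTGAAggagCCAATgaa
Plk1, chr7:122159335-122159434, plus strand: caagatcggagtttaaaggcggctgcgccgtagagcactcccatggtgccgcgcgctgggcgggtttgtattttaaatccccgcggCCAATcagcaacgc
Espl1, chr15:102296193-102296292, plus strand: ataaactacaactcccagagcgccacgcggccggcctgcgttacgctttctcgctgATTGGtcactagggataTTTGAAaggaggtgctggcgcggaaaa
Bub3, chr7:131560270-131560369, plus strand, the first of its 2 starts: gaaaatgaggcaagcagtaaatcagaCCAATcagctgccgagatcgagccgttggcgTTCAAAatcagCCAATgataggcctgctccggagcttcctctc
Pttg1, chr11:43425982-43426081, minus strand: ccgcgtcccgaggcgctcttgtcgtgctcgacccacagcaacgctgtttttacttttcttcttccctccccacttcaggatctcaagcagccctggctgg

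In these 100 bases Cdk1 held 2 CHR letter runs, the nearer beginning at position -15 from the start, and 2 CCAAT boxes. Espl1 held 1 of each, with the CHR letters at -27 and the CCAAT box at -44, and Cdc20 held CHR letters at -18 between CCAAT boxes at -53 and -8. Plk1 and Cdc25b held a CCAAT box alone, at -14 and -28, and the printed stretch of Pttg1 held neither. Bub3 held all these letters, with the CHR letters on the other strand at -43.

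The search was extended to the windows from 250 bases before to 50 after each start, on both strands, for TTTGAA, for the variant TTCGAA (its own reverse complement) and for CCAAT. None of these strings contains another. RefSeq's table gave 44 windows for 41 of the 49 genes. TTTGAA stood in 33 of the 44 windows, or 75.0%, against 17.9% of all 32851 promoter windows and 13.4% of the 18110 windows of genes on the array. TTCGAA stood in 9.09% of the genes' windows, against 1.56% of all windows. CCAAT stood in 79.5%, against 37.4% of all windows. A CHR form together with CCAAT stood in 72.7% of the genes' windows, against 7.52% of all, and 13.6% held none of the 3, against 50.9%. These shares describe letters and not occupied sites.

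The first comparison asked whether GDNF changed the mitosis genes within the pair of wells of a gut. They had no common direction with GDNF: 1 of the 49 genes passed the test, Cdc25b, and it was lower. No gene was higher by limma, at an adjusted p under 0.05 or at an unadjusted p under 0.05, and 2 genes (Cdc25b and Smc4) were lower at an unadjusted p under 0.05. Of all 18193 genes 31.5% were called, 18.3% higher and 13.2% lower. The median difference over the 49 genes was 0.15, and that over all genes was 0.0055. The adjusted p of the 48 genes not called ran from 0.0999 to 0.989. These misses do not show equal levels, because the spread over guts was wide: the SD of the difference over the 9 guts ran from 0.55 to 1.52 among the genes, with a median of 1.06, against a median of 0.843 over all genes.

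Cdc25b encodes the phosphatase that starts the activation of Cdk1 at the centrosome. For its levels, arrays of 1 RNA read in both batches were averaged, so single arrays can lie outside the ranges given. Its untreated wells had scores from -2.75 in gut 1 to 2.34 in gut 5, with a median of 0.85. Its treated wells lay between -1.51 in gut 6 and 0.12 in gut 4, with a median of -0.37. The differences were formed within a batch, for gut 2 in batch 2 alone, and so need not equal the gap between these levels. In guts 2 to 9 the difference, treated minus untreated, was -1.96, -1.50, -1.997, -2.48, -2.36, -1.42, -1.37 and -1.06, and in gut 1 it was 2.38. Cdc25b was thus lower with GDNF in 8 of 9 guts and higher in gut 1, by an amount as large as its falls. The mean difference was -1.31 ± 0.41 (limma standard error, n = 9 guts), with an adjusted p of 0.0249 over all genes. Its SD over the 9 guts was 1.46. For the other genes of the GDNF comparison ± is the SD over guts, except for Smc4, where it is again a standard error.

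Without gut 1 the mean difference of Cdc25b was -1.77 and its adjusted p was 0.000199. Leaving out gut 2, 3, 4, 5 or 6 gave differences between -1.28 and -1.16, with adjusted p between 0.0508 and 0.0617, which ended the call. Within batch 1 (8 guts) the difference was -1.43, with an adjusted p of 0.0394, and within batch 2 (4 guts) it was -1.06, with an adjusted p of 0.276. Cdc25b was measured by 1 probe set.

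Cdc25c, the phosphatase of the same family that amplifies Cdk1 activation, differed by 0.44 ± 0.95 (SD, n = 9 guts), with an adjusted p of 0.301. Its difference was below 0 in 3 guts, against 8 for Cdc25b. The difference between these family members was not tested.

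Cdk1, the kinase that drives entry into mitosis, differed by -0.14 ± 1.29 (SD, n = 9 guts; adjusted p = 0.815). Its differences were 2.80 in gut 1, -0.65, -0.10, -0.60, 0.08, -0.29, -0.66 and -2.08 in guts 2 to 8, and 0.24 in gut 9. They fell below 0 in 6 of 9 guts, and guts 1 and 8 stood at the ends. Ccna2 (cyclin A2) differed by 0.33 ± 1.26 (adjusted p = 0.535) and Cks1b, a small Cdk-binding subunit, by -0.28 ± 1.33 (adjusted p = 0.622). None of the 5 genes of this group, which also holds Ccnb2 and Cks2, was called.

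Of the kinases that build the spindle, Plk1 differed by 0.012 ± 1.37 (SD, n = 9 guts; adjusted p = 0.986). Its difference was 3.40 in gut 1, -1.72 in gut 8 and between -0.48 and 0.047 in the other 7 guts, so that 7 of the 9 guts lay below 0. Aurka, which matures centrosomes, differed by 0.20 ± 0.63 (adjusted p = 0.568). Plk4, Tpx2 and Nek2, the other members of this group, were not called either.

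The chromosomal passenger complex corrects faulty attachments through the kinase Aurkb. Aurkb differed by 0.24 ± 1.33 (SD over 9 guts, adjusted p = 0.679 by limma). Its partner Birc5 (survivin) differed by 0.25 ± 1.23 (adjusted p = 0.651) and Cdca8 (borealin) by 0.36 ± 1.20 (adjusted p = 0.491). With Incenp, 0 of the 4 genes were called, and 0 passed an unadjusted p under 0.05. Among the 5 checkpoint genes, Bub1 differed by 0.20 ± 1.06 and Bub3 by -0.31 ± 1.28, with adjusted p of 0.685 and 0.572. Bub3 was above 0 in 6 of 9 guts, and its mean was pulled below 0 by guts 4, 8 and 9, at -2.41, -1.34 and -2.01.

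Of the anaphase regulators, 0 of 4 genes were called by limma and 0 passed an unadjusted p under 0.05. Cdc20, the activator of the anaphase-promoting complex, differed by 0.13 ± 1.02 (SD over guts, adjusted p = 0.793). Espl1 (separase), the protease that cuts cohesin, differed by 0.013 ± 1.52 (adjusted p = 0.986), the largest SD over guts of any of the 49 genes. Pttg1 (securin), the inhibitor of separase, differed by -0.081 ± 0.60 (adjusted p = 0.829). Its 3 probe sets disagreed, with mean differences of 0.49, -0.65 and -0.078, and the second of these was below 0 in 9 of 9 guts.

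Among the 7 mitotic kinesins, Kif11, which pushes spindle poles apart, differed by 0.18 ± 0.94 (SD over guts, as below). Kif20a, which acts in cytokinesis, differed by 0.20 ± 1.06. Their adjusted p were 0.694 and 0.69 by limma. At the centromere, Cenpa, the histone variant that marks it, differed by 0.031 ± 0.55 and Cenpf, an outer kinetochore protein, by 0.20 ± 0.90 (adjusted p = 0.936 and 0.655). In the spindle midzone and cytokinesis group, Prc1, which bundles midzone microtubules, differed by -0.087 ± 0.93 and Ect2, the RhoA activator of the cleavage furrow, by -0.0089 ± 1.36 (adjusted p = 0.854 and 0.989). No gene of these 3 groups was called. Foxm1, the transcription factor that switches many of the others on, differed by -0.037 ± 1.04 (adjusted p = 0.945).

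Condensin compacts mitotic chromosomes, and its core subunit Smc4 came nearest to the threshold after Cdc25b. The differences of Smc4 were 1.44 in gut 1 and -1.33, 0.23, -1.82, -0.51, -0.18, -1.24, -1.85 and -1.46 in guts 2 to 9. It was lower in 7 of 9 guts and higher in guts 1 and 3. The mean was -0.75 ± 0.33 (limma standard error), with an adjusted p of 0.0999.

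Without gut 1, Smc4 differed by -1.02 with an adjusted p of 0.0124, and it was then called beside Cdc25b. The 2 genes were then the ones called among the 49, both lower, where 13.9% of all genes were called lower and 32.5% in either direction. Its 3 probe sets had mean differences of -0.78, -1.02 and -0.44 over the 9 guts. The partner subunit Ncapg differed by 0.35 ± 1.03, the DNA-untangling enzyme Top2a by 0.26 ± 0.69 and the proliferation marker Mki67 (Ki-67) by 0.24 ± 1.21 (SD, n = 9 guts), with adjusted p of 0.451, 0.476 and 0.663.

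**Figure D1:**
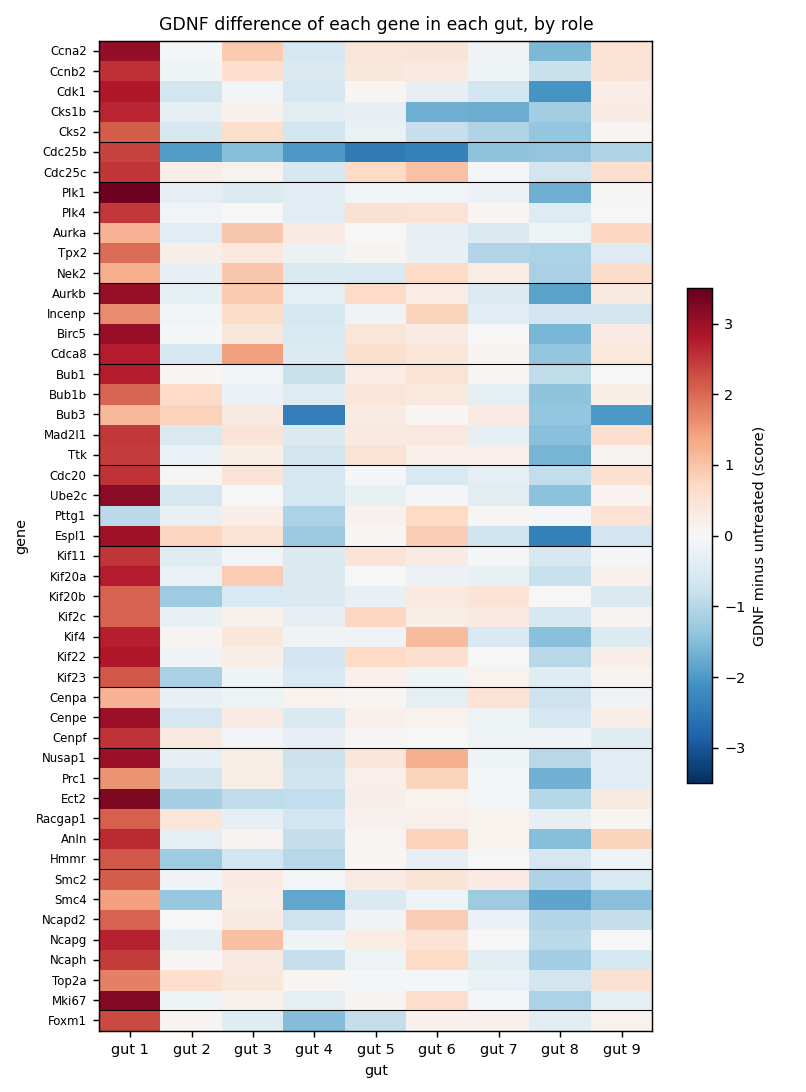
Difference in score between the GDNF-treated and the untreated well for each of the 49 genes (rows, grouped by role with lines between groups) in each of the 9 guts (columns); red is higher with GDNF and blue lower. Gut 1 is red in all rows except Pttg1 at -0.93, gut 8 is blue in nearly all rows, and Cdc25b is blue in guts 2 to 9.

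How far the genes shared a direction differed between guts, and gut 1 stood far from the rest. The median difference over the 49 genes was 2.48 in gut 1 and -0.25, 0.23, -0.53, 0.10, 0.28, -0.13, -1.03 and 0.086 in guts 2 to 9. In gut 1, 48 of 49 genes were higher in the treated well, from 1.18 (Bub3) to 3.40 (Plk1), with Ect2 at 3.28 and Mki67 at 3.23. Pttg1 was the exception, at -0.93. In gut 8, 48 of 49 genes were lower in the treated well, and in gut 4 46 of 49 were lower. The shares of the genes above 0 were 26.5% in gut 2, 69.4% in each of guts 3, 5 and 6, 34.7% in gut 7 and 57.1% in gut 9, against 50.0% to 55.7% of all genes over the 9 guts, with the 55.7% in gut 9.

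Gut 1 had the highest difference of the 9 guts for 48 of 49 genes, where 15.5% of all genes had their highest difference there. Of the 121 probe sets, 115 were higher in its treated well. Without gut 1 the SD of the per-gut median fell from 0.970 to 0.444, and the median difference over the genes went from 0.15 to -0.13. The mean differences of the single genes then ran from -1.77 (Cdc25b) to 0.18 (Cdc25c), and their SD over guts had a median of 0.574, against 0.804 over all genes.

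**Figure D2:**
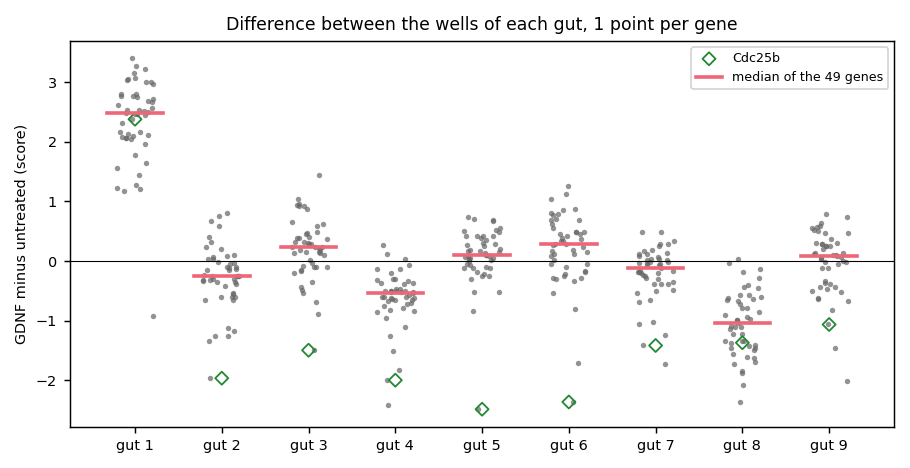
GDNF minus untreated difference in score (vertical axis) in each of the 9 guts, with 1 grey point per gene, a red bar at the median of the 49 genes and a green diamond at Cdc25b. The red bar is at 2.48 in gut 1 and between -1.03 and 0.28 in the other guts, and the Cdc25b diamond is below the red bar in every gut, gut 1 included.

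In gut 1 the untreated well was low and the treated well high: the median score over the genes was -1.19 and 1.21. Cdk1 scored -1.81 and 1.00, Plk1 -1.70 and 1.69 and Mki67 -1.65 and 1.57. The treated well lay within the range of the other treated wells, whose medians, averaged over batches where read in both, ran from -1.03 to 1.38. The untreated well was the lowest of the 9 untreated wells, of which the next was gut 9 at -0.70.

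Other measures moved in gut 1 too, and their part in its difference was not tested. All 25 S phase genes were higher in its treated well, with a median of 1.45, and the 10 smooth muscle markers were all higher, with a median of 1.21, where in the other guts that median lay between -1.10 and 0.30. Endothelial markers had a median of 1.15 in gut 1, with 7 of 8 higher. Other gut cell markers did not share this rise. Medians in gut 1 were -0.25 for mesenchymal (1 of 10 higher), -0.38 for macrophage and leukocyte (2 of 9) and -0.46 for erythroid markers (1 of 5). Epithelial markers had a median of 0.075 (6 of 11 higher) and mesothelial markers 0.42 (4 of 5). The spiked hybridisation controls of the array were lower by 1.87 in the treated well of gut 1, between the -2.18 of gut 9 and the -1.55 of gut 4. Neuronal markers were higher in the treated well of gut 1, with a median of 1.83, as in the other guts (1.16 to 1.94), and ribosomal protein genes were lower, by a median of -1.14 (other guts -1.50 to -0.59).

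Levels of the mitosis genes differed between guts, and outside guts 1 and 8 the wells of a gut lay near each other. Medians of RNAs read in both batches were averaged here. The medians of the untreated and the treated well were 0.92 and 0.62 in gut 2, 0.69 and 0.88 in gut 3, 1.19 and 0.61 in gut 4 and 1.12 and 1.38 in gut 5. They were -0.30 and -0.060 in gut 6, -0.60 and -0.78 in gut 7, 0.012 and -1.03 in gut 8 and -0.70 and -0.62 in gut 9. Guts 2 to 5 were thus high in both wells, guts 6, 7 and 9 were below 0 in both, and gut 8 was near 0 untreated and low with GDNF. Over the 8 guts without gut 1, the mean of a gut's wells had an SD of 0.797, against an SD of 0.444 for the difference between them.

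The 3 guts with both wells read in both batches show how far the median over the genes repeats. Gut 8 gave a median difference of -0.99 in batch 1 and -1.07 in batch 2, and gut 9 gave 0.11 and 0.0076. Gut 3 gave -0.21 and 0.68. In gut 3 the untreated well had a median of 1.05 in batch 1 and 0.34 in batch 2, while its treated well had 0.85 and 0.91. Single genes repeated unevenly. Gene by gene, batch 1 and batch 2 scores of the repeated RNAs had a median correlation of 0.77 over the 49 genes. Over all genes that median was 0.39. Among the 49 it ran from -0.61 to 0.97, and it was negative for Cks1b (-0.61), Kif20a (-0.36) and Cks2 (-0.29).

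**Figure D3:**
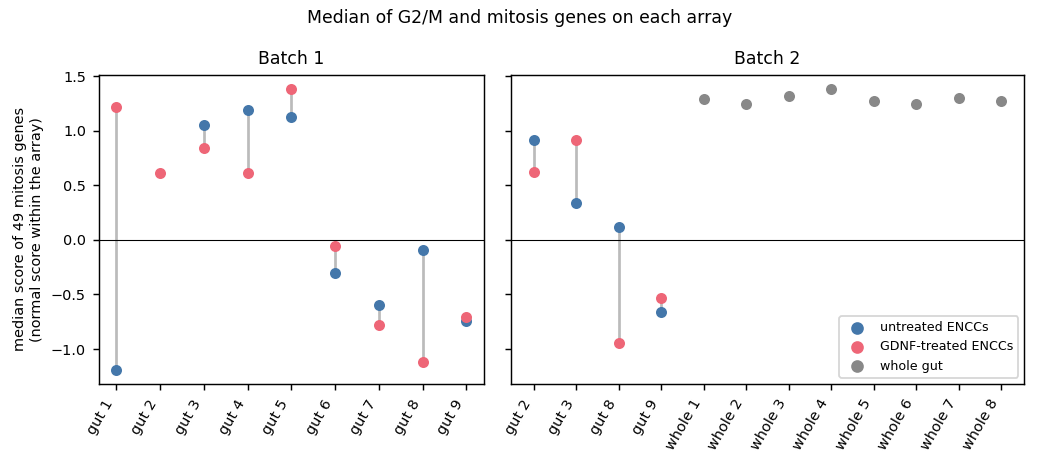
Median score of the 49 genes (vertical axis) on each of the 33 arrays, in batch 1 (left) and batch 2 (right); blue points are untreated ENCCs, red points GDNF-treated ENCCs, grey points whole guts, and a grey line joins the wells of 1 gut. The 8 whole guts lie between 1.24 and 1.38, above every ENCC array of batch 2, and gut 1 has the longest line in batch 1.

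The second comparison set cultured ENCCs against whole gut, in batch 2 alone, where 4 guts (2, 3, 8 and 9) gave both wells. In untreated ENCCs 41 of the 49 genes were lower than in whole gut and 1, Bub3, was higher by limma, where 22.8% of all genes were called lower, 19.8% higher and 42.6% either way. The median difference over the genes was -1.15, against -0.011 over all genes. In 36 of the 49 genes every untreated ENCC array lay below every whole gut, which held for 15.2% of all genes. Whole gut is a mixture of cell types, and in bulk samples fewer cells expressing a gene and less RNA per cell cannot be told apart.

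In GDNF-treated ENCCs 46 of the 49 genes were lower than in whole gut and none was higher by limma, also none at an unadjusted p under 0.05. Of all genes 26.0% were called lower, 25.1% higher and 51.0% either way. The median difference was -1.31, against -0.015 over all genes. In 36 genes every treated array lay below every whole gut, against 17.1% of all genes. The 8 whole guts serve in both comparisons, which are therefore not independent, and no gut 1 array enters either.

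The groups differed in spread as well as in level. The median score of the 49 genes lay between 1.24 and 1.38 in the 8 whole guts, with an SD of 0.0445, between -0.66 and 0.92 in the 4 untreated arrays and between -0.95 and 0.91 in the 4 treated arrays. The SD of a single gene had a median of 0.057 among whole guts, 0.80 among untreated and 1.05 among treated ENCC arrays. Over all genes these medians were 0.154, 0.755 and 0.709, so the narrower spread of whole guts was not particular to the mitosis genes. With a separate variance for each group, limma called 31 genes in untreated and 43 in treated ENCCs, all lower. Of all 18193 genes it then called 3761 and 5805, in either direction.

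Sorting, culture, cell type and the embryos' genotype differ together between ENCCs and whole gut, and they cannot be told apart. Most markers of other gut cells were also lower in ENCCs than in whole gut in batch 2, and their part in the result was not tested. Of all genes 22.8% were called lower untreated and 26.0% with GDNF, and 19.8% and 25.1% higher. Medians of the 11 epithelial markers lay between 2.58 and 2.73 in whole guts, -0.41 and 0.43 in untreated and -0.14 and 0.93 in treated ENCCs, with all 11 called lower in both. All 8 endothelial markers were called lower in both, with medians of 1.86 to 1.94 in whole guts, -0.67 to 0.32 in untreated and -0.21 to 0.19 in treated ENCCs, and 9 of 10 smooth muscle markers were called lower in both. Macrophage and leukocyte markers were called lower for 9 of 9 untreated and 8 of 9 with GDNF, mesothelial markers for 5 of 5 in both and erythroid markers for 4 of 5 in both. Mesenchymal markers were mixed in untreated ENCCs, with 4 of 10 called lower and 1 higher, and 8 of 10 were lower with GDNF. Of 9 ribosomal protein genes, listed as a check on RNA quality, 0 were called untreated and 8 were lower with GDNF. Their median score lay between 0.81 and 1.04 in whole guts, 0.033 and 0.95 in untreated and -0.74 and 0.022 in treated ENCCs. RNA quality itself was not measured here, and whether these genes reflect it was not tested.

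By role, the 5 cyclin, Cdk1 and Cks genes were called lower for 3 in untreated and 5 in treated ENCCs. Cdk1 scored 1.37, 0.44, 0.55 and -0.81 in the untreated wells of guts 2, 3, 8 and 9, 0.72, 0.90, -1.88 and -0.73 in their treated wells, and between 1.38 and 1.56 (median 1.49) in whole guts. No ENCC array reached the lowest whole gut, although untreated gut 2 came close to it. Against whole gut, Cdk1 differed by -1.09 ± 0.29 untreated and -1.72 ± 0.40 with GDNF (limma standard errors, 4 against 8 arrays), with adjusted p of 0.00667 and 0.0029. Unless a separate variance is named, ± and adjusted p against whole gut rest on a variance pooled over both groups. Where ENCC arrays spread more than whole guts, they understate the uncertainty. For Cdk1 the SD was 0.90 untreated, 1.31 with GDNF and 0.059 in whole guts.

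Ccna2 was among the genes farthest below whole gut in untreated ENCCs, at -1.61 ± 0.34 (adjusted p = 0.00143 by limma), and differed by -1.47 ± 0.42 with GDNF (adjusted p = 0.00985). Cks1b differed by -0.94 ± 0.39 untreated, which was not called (adjusted p = 0.0621), and by -0.53 ± 0.13 with GDNF (adjusted p = 0.00321). The untreated mean of Cks1b rested on gut 3, at -1.84, while guts 2, 8 and 9 scored 0.97, 0.78 and 0.24 against 0.92 to 1.04 in whole guts. The ENCC scores of Cks1b did not repeat between batches (correlation -0.61), which limits both of its differences.

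Cdc25b stood nearer to whole gut untreated than with GDNF. It scored -0.11, 0.51, 0.35 and 0.90 in the untreated wells of guts 2, 3, 8 and 9, and -2.07, -0.80, 0.31 and -0.045 in their treated wells, against 0.78 to 0.97 in whole guts. Untreated gut 9 lay within the whole guts' range, and all treated wells lay below it. The difference was -0.47 ± 0.18 untreated (adjusted p = 0.0454 by limma) and -1.54 ± 0.33 with GDNF (adjusted p = 0.00164). The untreated call was lost without gut 2, at -0.30 with an adjusted p of 0.119, without gut 8 (adjusted p = 0.0643) and over all 9 guts, at -0.21 with an adjusted p of 0.731. It was also lost with a separate variance per group (adjusted p = 0.241). Cdc25b has 1 probe set, so other summaries of probe sets left its difference at -0.47 and changed its adjusted p through the other genes alone. That adjusted p was 0.0759 with the probe set that agreed best between batches and 0.0518 with the median of probe sets. Of the 9 alternatives, these summaries included, 3 kept the untreated call. Cdc25c was lower in both, by 1.19 and 1.11 on the score scale (adjusted p = 0.000558 and 0.029), and the GDNF call was lost without gut 9 (adjusted p = 0.0623).

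Plk1 and the Aurora kinases were lower in both. Plk1 scored 1.75, 0.34, 0.047 and -0.80 untreated and 1.40, 0.45, -1.87 and -0.40 with GDNF in guts 2, 3, 8 and 9, against 1.76 to 1.94 in whole guts. Every ENCC array lay below every whole gut, by little in untreated gut 2. The differences were -1.49 ± 0.33 and -1.93 ± 0.42 (adjusted p = 0.00201 and 0.00195 by limma). Aurka differed by -1.35 ± 0.27 and -1.14 ± 0.18 (adjusted p = 0.00108 and 0.000129).

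All 4 passenger genes were called lower in both. Aurkb scored between -0.95 and 0.95 untreated and between -1.63 and 1.63 with GDNF, against 1.67 to 1.82 in whole guts. It differed by -1.65 ± 0.26 untreated (adjusted p = 0.000154) and by -1.65 ± 0.42 with GDNF (adjusted p = 0.00544). Birc5 differed by -1.39 and -1.63 and Cdca8 by -1.47 and -1.30, each with a limma adjusted p under the threshold.

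Bub3, whose product binds unattached kinetochores, was the single gene higher in untreated ENCCs. It scored -0.23, -0.23, 0.66 and 0.58 untreated and 0.57, 0.47, -0.77 and -1.28 with GDNF in guts 2, 3, 8 and 9, against -1.13 to -0.051 (median -0.65) in whole guts. The untreated arrays of guts 8 and 9 lay above all whole guts and those of guts 2 and 3 among them. The difference was 0.81 ± 0.23 untreated (adjusted p = 0.0108 by limma) and 0.36 ± 0.32 with GDNF (adjusted p = 0.373).

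The 5 probe sets of Bub3 disagreed. Their untreated minus whole gut differences were 1.37, -0.27, 1.60, 1.33 and 0.050. Taking the probe set whose values agreed best between batches turned the difference to -0.27 (adjusted p = 0.63), and a separate variance for each group also ended the call (adjusted p = 0.475). Bub1, of the same checkpoint, was lower in both, by -1.25 ± 0.26 and -1.40 ± 0.32 (adjusted p = 0.00159 and 0.00237).

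Espl1 was the gene farthest below whole gut in both groups. It scored 0.0061, 0.32, 0.14 and -0.11 untreated and 0.76, 0.93, -2.56 and -0.53 with GDNF in guts 2, 3, 8 and 9, against 1.69 to 1.95 in whole guts. The untreated wells were close together and the treated wells far apart, and all lay below the whole guts. The differences were -1.73 ± 0.15 (adjusted p = 9.85e-07) and -2.17 ± 0.49 (adjusted p = 0.00241). Cdc20 was lower by 1.46 and 1.35 on the score scale (adjusted p = 0.00043 and 0.00287).

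Pttg1, the partner of Espl1, was called in neither. It scored -0.67, -0.73, 1.19 and -0.20 untreated and -0.93, -0.044, 0.60 and 0.79 with GDNF, against -0.54 to -0.077 in whole guts, so the groups overlapped. The differences were 0.19 ± 0.29 and 0.40 ± 0.26 (adjusted p = 0.628 and 0.226). Its 3 probe sets differed in sign untreated, at -0.50, 1.18 and -0.11. Over all 49 genes, the probe sets of 10 differed in sign in this comparison, and 108 of the 121 probe sets were lower in untreated ENCCs.

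**Figure D4:**
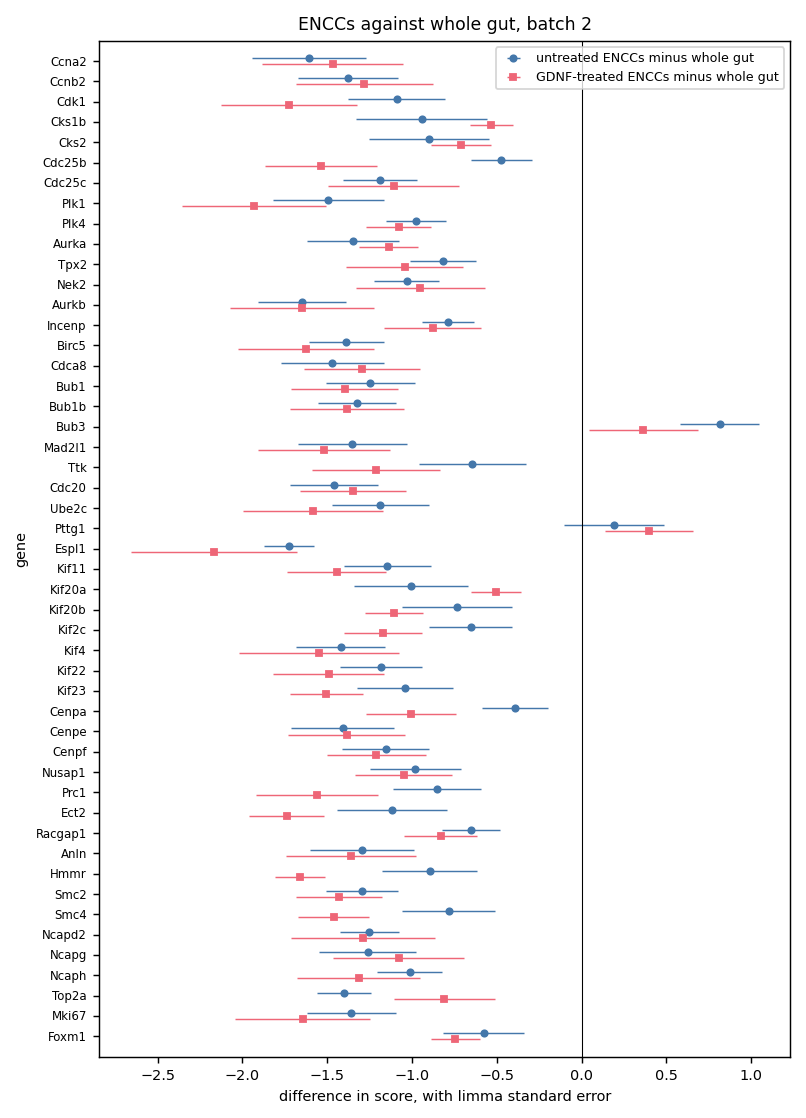
Difference in score from whole gut (horizontal axis) for each of the 49 genes (rows) in untreated (blue circles) and GDNF-treated ENCCs (red squares) of batch 2. Bars are 1 limma standard error, from a variance pooled over 4 ENCC arrays and 8 whole guts, which understates the wider ENCC spread. Nearly all points lie left of 0, Espl1 is farthest left at -1.73 and -2.17, and Bub3 and Pttg1 alone lie to the right.

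Of the kinesins, 6 of 7 were called lower in untreated and 7 of 7 in treated ENCCs. Kif11 differed by -1.15 ± 0.26 and -1.44 ± 0.29 (adjusted p = 0.00238 and 0.00111 by limma). Kif20a differed by -1.01 ± 0.34 untreated (adjusted p = 0.0254) and by -0.50 ± 0.15 with GDNF (adjusted p = 0.0125), the smallest called difference with GDNF. Both calls were lost with a separate variance per group (adjusted p = 0.0504 and 0.0731). Its untreated mean, like that of Cks1b, held a low value in gut 3, at -1.57. The ENCC scores of Kif20a did not repeat between batches either (correlation -0.36), which limits both of its calls.

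At the centromere, Cenpf was lower in both, by -1.16 and -1.21 (adjusted p = 0.00229 and 0.00377 by limma). Cenpa was not called untreated, at -0.39 ± 0.20 (adjusted p = 0.122), with gut 3 at 0.86 above the whole guts' 0.57 to 0.71, and was lower with GDNF, by -1.003 ± 0.27 (adjusted p = 0.00652). Without gut 3, Cenpa differed by -0.60 untreated with an adjusted p of 0.0025. The probe sets of Cenpa disagreed untreated, at 1.18, -1.31 and -1.05, and the first did not repeat between batches (correlation -0.72). Of the 9 alternatives, 4 called Cenpa lower untreated. Besides the one without gut 3, these were the median of probe sets (-0.82, adjusted p = 0.0064), the probe set that agreed best between batches (-1.05, adjusted p = 0.0091) and all 9 guts (-0.63, adjusted p = 0.0175).

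All 6 midzone and cytokinesis genes were called lower in both. Ect2 scored 0.89, 1.53, -0.17 and -0.80 untreated and -0.29, 0.68, -0.62 and -0.81 with GDNF in guts 2, 3, 8 and 9, against 1.41 to 1.55 in whole guts. Untreated gut 3 lay within the whole guts' range, and all 4 treated arrays lay below it. The differences were -1.12 ± 0.32 and -1.74 ± 0.22 (adjusted p = 0.0117 and 2.43e-05). Prc1 differed by -0.85 ± 0.26 and -1.56 ± 0.36 (adjusted p = 0.0161 and 0.00278), and its untreated call was lost with a separate variance per group (adjusted p = 0.0631).

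All 7 genes of the condensin, topoisomerase and Ki-67 group were called lower in both. Smc4 differed by -0.78 ± 0.27 untreated and -1.46 ± 0.21 with GDNF (adjusted p = 0.0321 and 6.43e-05 by limma). The untreated call of Smc4 was lost with a separate variance per group (adjusted p = 0.0956) and with the median of probe sets (adjusted p = 0.0575). Mki67 differed by -1.36 ± 0.26 and -1.64 ± 0.40 (adjusted p = 0.000803 and 0.00373). Top2a differed by -1.40 ± 0.16 untreated (adjusted p = 8.76e-06) and by -0.81 ± 0.30 with GDNF (adjusted p = 0.0365). The GDNF call of Top2a was lost without gut 8 or 9, at -0.40 and -0.81 (adjusted p = 0.0874 and 0.0619), and with a separate variance per group (adjusted p = 0.109), and that of Ncapg without the same guts (adjusted p = 0.12 and 0.113).

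Foxm1 differed by -0.58 ± 0.24 untreated, which was not called (adjusted p = 0.0634 by limma), and by -0.74 ± 0.15 with GDNF (adjusted p = 0.000865). That call was lost over all 9 guts, at -0.61 with an adjusted p of 0.0732. Untreated, the probe sets of Foxm1 disagreed, at -0.96, 0.55, -1.42 and -0.48, and the second did not repeat between batches (correlation -0.65). Of the 9 alternatives, 4 called Foxm1 lower untreated. These were without gut 3 (adjusted p = 0.0089), without gut 8 (0.0444), the median of probe sets (0.0232) and the probe set that agreed best between batches (0.0248). Besides Foxm1, Cks1b, Cenpa and Pttg1, the genes not called in untreated ENCCs were Cks2, Kif20b and Ttk. With GDNF they were Nek2, Bub3 and Pttg1. Cks2, Kif20b, Ttk and Nek2 are named here after their values were seen.

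Other genes of the pathway, from lists drawn up beside the 49, were compared in the same fits. Of 52 other G2/M and mitosis genes, none was called for GDNF by limma, where 31.5% of all genes were. Of the 52, 1 passed an unadjusted p under 0.05, and the median difference was 0.16. Without gut 1, 2 of the 52 were called, both lower (Gtse1 and, named after its value was seen, Ckap2), where 13.9% of all genes were lower. In gut 1, 50 of these 52 were higher in the treated well, with a median of 2.36. Against whole gut, 43 were lower and 1 higher in untreated ENCCs, where 22.8% and 19.8% of all genes were. With GDNF 45 were lower and none higher, where 26.0% and 25.1% of all genes were. The 1 higher in untreated ENCCs was Kif15, a kinesin, at 0.77 (adjusted p = 0.00596), named after its value was seen. H2ax, a histone of the DNA damage response, had the highest difference for GDNF in this list, at 0.94 ± 1.41 (SD, n = 9 guts; adjusted p = 0.0862), and Gtse1, which acts in G2, the lowest, at -0.85 ± 1.42 (adjusted p = 0.125).

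Of 25 S phase genes, 1 was called lower for GDNF and none higher, where 13.2% and 18.3% of all genes were. It was Ccne1 (cyclin E1), which acts at the start of S phase, at -0.95 ± 1.01 (SD, n = 9 guts; adjusted p = 0.031), and Gins1, a replication factor, had the highest difference, at 0.64 (adjusted p = 0.132). Without gut 1, 5 of the 25 were called lower, against 13.9% of all genes. Against whole gut, 19 of 25 were lower untreated and 23 with GDNF, where 22.8% and 26.0% of all genes were.

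Of 12 genes that restrain mitotic entry, 2 were called higher and 3 lower with GDNF, where 18.3% and 13.2% of all genes were, and 7 did not pass. Btg2, an antiproliferative gene induced by p53, was lower, at -1.58 ± 0.41 (SD, n = 9 guts; adjusted p = 0.000105), Gadd45a at -1.53 (adjusted p = 0.000235) and the Cdk inhibitor Cdkn1a at -1.44 (adjusted p = 0.000273). Rprm, which holds cells in G2, was higher, at 1.67 ± 0.71 (adjusted p = 0.00027), and so was Pkmyt1, a kinase that inhibits Cdk1, at 0.93 (adjusted p = 0.0295). Btg2 was lower and Rprm higher in 9 of 9 guts, gut 1 included. Without gut 1, 1 of the 12 was called higher and 5 lower, where 18.5% and 13.9% of all genes were, and Pkmyt1 differed by 0.78 (adjusted p = 0.067). Against whole gut, 5 of the 12 were higher and 6 lower in untreated ENCCs, where 19.8% and 22.8% of all genes were. With GDNF 3 were higher and 6 lower, where 25.1% and 26.0% of all genes were. Gadd45a, Cdkn1a and Pkmyt1 are named after their values were seen.

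The anaphase-promoting complex, which marks cyclins and securin for destruction, had 3 of 13 genes called higher and 2 lower with GDNF, shares near the 18.3% and 13.2% of all genes. Fzr1, its activator in late mitosis and G1, was higher by 1.40 ± 0.45 (SD, n = 9 guts; adjusted p = 0.000264) in 9 of 9 guts, and Anapc13, a small subunit, was lower, at -0.76 ± 0.63 (adjusted p = 0.0243). The counts were the same without gut 1. Against whole gut, 2 genes were higher and 2 lower in untreated ENCCs, and 4 were higher and 3 lower with GDNF, where 51.0% of all genes were called with GDNF and 42.6% without.

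Among 11 genes of MuvB, B-Myb and the E2F repressors, 1 was called higher and 2 lower with GDNF, where 31.5% of all genes were called. Tfdp1, the partner of E2F factors, was lower at -1.14 ± 0.95 (SD, n = 9 guts; adjusted p = 0.00942), and Lin37, a MuvB subunit, was higher at 0.97 ± 1.11 (adjusted p = 0.0374). Both were reversed in gut 1, at 1.09 and -1.45, against -2.25 to -0.78 and 0.46 to 2.54 in guts 2 to 9. Without gut 1 the counts were again 1 and 2. Against whole gut, 7 of the 11 were lower and 1 higher in untreated ENCCs, and 5 were lower and 1 higher with GDNF, where 22.8% and 26.0% of all genes were lower.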

How the data were processed

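Values came from the deposited series table. The submitters' processing notes name RMA, and per the file's own values the deposited unit is a normal score of rank within each array, so the authors' scale is a score and not log2. No further step by the authors is given in the sources used here. Scores of the 34945 probe sets with 1 symbol were averaged per gene without a filter on low values. For GDNF, 1 difference per gut was formed within batch (guts read in both batches were averaged) and tested with limma 3.58.1 (lmFit, eBayes; R 4.3.3). The pairing comes from the labels' treatment protocol, and gut numbers from the titles. Against whole gut, limma compared 4 with 8 arrays of batch 2, with a variance pooled over both groups. P-values were adjusted by Benjamini-Hochberg over 18193 genes, with a threshold of 0.05. The paired and the 4-against-8 fits were tested on simulated data.

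The 49 genes and all lists were chosen with earlier results of these data known. Genes named were 1 or 2 per role, every gene called for GDNF (or, failing that, the smallest p), the 4 highest and 4 lowest in each comparison, the 3 highest and lowest in gut 1, and the extremes of each other list. Alternatives were: no pairing, each batch alone, each gut left out, other summaries of probe sets, robust moderation, hybridisation controls as a covariate, a separate variance per group, all 9 guts against whole gut, and 1 array left out. The number of arrays limits the precision. Nothing in the labels says that the guts come from separate litters.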

Additional observations from a re-analysis of the deposited data

Results flagged for a closer look

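A gap test of the highest and lowest sample against the others was run on 84 groups of samples. In groups chosen without regard to their values, chance alone would single out about 1 in 20. The test singled out gut 1 in 15 groups and 1 other sample. In gut 1 the difference between the GDNF-treated and the untreated well was far above those of the other 8 guts for the median of the 49 genes (2.48) and of the 52 other G2/M and mitosis genes (2.36). It was so for Cdk1 (2.80), Cdc25b (2.38), Plk1 (3.40), Birc5 (3.04), Bub1 (2.76), Cdc20 (2.53) and Kif11 (2.51). The same held for Cenpf (2.54), Mki67 (3.23), Foxm1 (2.32), Cks1b (2.66), Ect2 (3.28) and Kif20a (2.74). These genes share the same pair of RNAs, so the 15 groups are not independent. Plk1, Ect2 and Mki67 were among the genes named for their high difference in gut 1, so their groups were not chosen without regard to it. The ENCCs of gut 1 were not read in batch 2, so they could be found only in the groups of GDNF differences. The 15 is thus not a share of the 84, and the rate of 1 in 20 is no reference for it. Smc4 was singled out once among the GDNF-treated arrays of batch 2, where gut 3 scored 0.78 and guts 2, 8 and 9 scored -0.31, -0.49 and -0.49.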

How the results depend on the processing

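For GDNF, limma called 1 of the 49 genes and 5725 of all 18193. Without the pairing of wells (no replicate block) it called 0 of the 49 (2 at an unadjusted p under 0.05) and 4993 of all genes. In batch 2 alone it called 0 of all genes, with 0 of the 49 and 3516 of all genes at an unadjusted p under 0.05. With the probe set that agreed best between batches it called 3 (Cdc25b, Pttg1 and Smc4), and 6208 of all genes. Without the batch 2 array of the untreated well of gut 3 it called 2 (Cdc25b and Smc4), and 5883 of all genes. Without the pairing Cdc25b differed by -1.24 with an adjusted p of 0.0515. Leaving out each gut in turn gave 0 to 2 called genes, where 5029 to 5909 of all genes were called. Batch 1 alone, the median of probe sets, robust moderation and the control covariate gave 1 each, Cdc25b, where 5324, 5788, 5678 and 5752 of all genes were called. The median difference over the genes lay between -0.15 and 0.27 over 17 alternatives, so its sign was not settled.

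Against whole gut, the genes called lay between 31 and 45 of 49 in untreated ENCCs and between 38 and 47 in treated ENCCs over 9 alternatives each. Of all 18193 genes, 3761 to 9497 were called untreated and 5805 to 9877 with GDNF. The median differences over the 49 genes lay between -1.31 and -0.88 untreated and between -1.61 and -1.003 with GDNF. The lowest count in untreated ENCCs came with a separate variance per group, which also took all called genes from 7752 to 3761, and in treated ENCCs from 9281 to 5805. Bub3 in untreated ENCCs reversed, to -0.27, with the probe set that agreed best between batches. Among the 26 named genes, 51 of 442 values for GDNF, 1 of 234 for untreated and 1 of 234 for treated ENCCs against whole gut changed sign with neither value called. Rank scores keep no shift shared by all genes, and 4 ENCC arrays against whole gut limit that comparison.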
